A study of Mus musculus with 11 samples.

Results

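Glycolysis splits glucose into pyruvate in the cytosol, and pyruvate is then either reduced to lactate and exported or carried into mitochondria and oxidised by pyruvate dehydrogenase. Many steps have several isoforms that are used by different tissues, and the embryonic heart is known to rely on glycolysis more than the adult heart does. Several genes of the pathway, among them glucose transporters, hexokinase, lactate dehydrogenase and a pyruvate dehydrogenase kinase, are textbook targets of the hypoxia-inducible factors.

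The 39 genes described here, out of 55487 genes in the count tables, include glucose transporters and the enzymes from hexokinase to pyruvate kinase. Lactate dehydrogenase, lactate transporters, and 2 subunits of pyruvate dehydrogenase with the kinases that regulate it complete the set. All 39 genes were chosen by name along the pathway, had at least 10 counts over the hearts and were tested. RNA-seq was carried out on whole hearts of mouse embryos at E14.5, from 5 Pde2A-/- hearts (replicates A, B, 14, D and 15) and 6 Pde2A+/+ hearts (replicates 7, 11, 6, 8, H and E). Pde2A encodes a phosphodiesterase that degrades cAMP and cGMP, the Pde2A-/- embryos carried the tm1Dgen allele on a mixed B6;129P2 background in every cell, and the Pde2A+/+ embryos came from the same kind of heterozygous intercross. Embryos of both sexes were used, no treatment was given, and each library was 1 heart with all its cell types, so that fewer cells of a type and less RNA per cell cannot be told apart in any value below.

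Reads assigned to the sense strand of genes numbered 35865537 to 42835382 per heart. The targeted gene Pde2a (ENSMUSG00000110195) had 0 to 2 counts in each library of either genotype, which leaves its loss untested in these counts. All 4 defining cardiomyocyte markers (Tnnt2, Myh6, Actc1 and Ryr2) were at 357 CPM (reads of a gene relative to the library size after TMM scaling) or more in every heart. Transcripts of liver genes were found in Pde2A-/- heart D and Pde2A+/+ hearts 11, H and E, where the albumin gene Alb was at 11.5 to 46.6 CPM against at most 0.678 CPM in the other hearts. Transcripts of skeletal muscle genes were found in Pde2A-/- hearts B and D, where the embryonic myosin gene Myh3 was at 71.0 and 86.7 CPM against at most 16.7 CPM elsewhere. Of the marker lists, 1 of 12 skeletal muscle genes (Tnnt3, higher), 5 of 12 endothelial genes (4 higher) and 5 of 12 fibroblast genes (all higher) passed the test between genotypes. Of all genes tested, 8.93% were higher and 5.67% lower. None of the 11 liver genes tested passed in either direction, at a median log2 fold change of -2.22. Their summed level was 5.64 to 47.7 CPM in Pde2A-/- and 3.81 to 124 CPM in Pde2A+/+ hearts, that of the skeletal muscle list 30.8 to 195 and 28.9 to 60.6 CPM. The part of these cells in the values below was not tested.

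Of the 39 genes, 20 were higher in Pde2A-/- hearts at an adjusted p under 0.05 (edgeR's quasi-likelihood test, Benjamini-Hochberg over all 24177 genes tested) and 2 were lower, where 8.93% of all genes tested were higher and 5.67% lower. The rise was at least 2-fold for 7 of them, which were Slc2a1, Slc2a3, Hk2, Hk3, Pfkfb3, Eno2 and Pklr, against 2.21% of all genes. The median log2 fold change of the 39 genes was 0.35, and that of all genes tested was -0.02. Without Pklr and Bpgm, whose products serve red blood cells, 19 of 37 genes rose and 1, Pgam2, fell.

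These counts changed when single hearts were left out, as did those over all genes. The number higher was 9 without Pde2A-/- heart D, 10 without heart 14, 10 without heart 15 and 24 without heart A. The share of all genes that was higher in these fits was 5.40%, 5.90%, 5.78% and 12.1%, in the same order. Without any 1 of the Pde2A+/+ hearts, 14 to 17 of the genes were higher, and 6.52 to 7.96% of all genes. In all 11 fits that each left out 1 heart, 9 of the genes stayed higher (Slc2a1, Slc2a3, Hk2, Hk3, Pfkl, Pfkfb3, Aldoc, Pklr and Pdk1) and the 2 lower ones (Pgam2 and Bpgm) stayed lower. When the 4 hearts with liver RNA were all left out, 2 genes stayed past the adjusted p, Aldoc and Pklr, in a fit of 4 against 3 hearts where 2.13% of all genes were higher. The median log2 fold change of the 39 genes in that fit was 0.30. Without the 2 hearts with skeletal muscle RNA, 12 of the genes and 5.76% of all genes were higher.

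**Figure D1:**
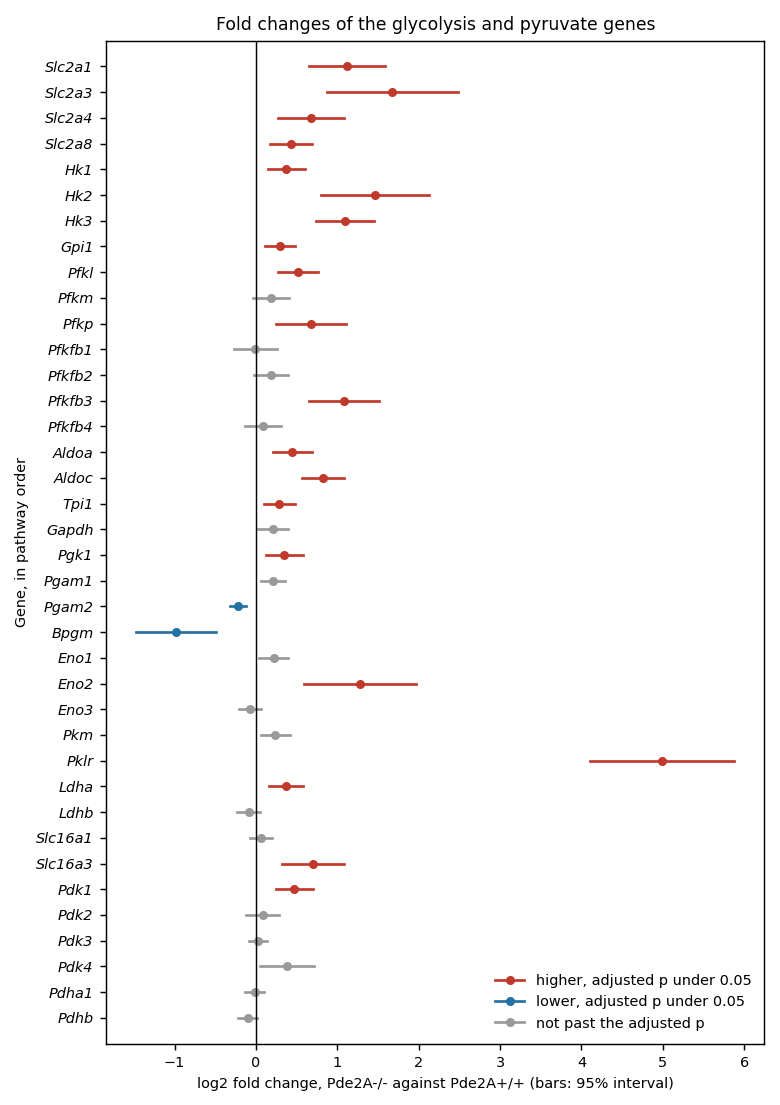
Log2 fold change of each gene in Pde2A-/- against Pde2A+/+ hearts (x axis) with its 95% interval, in pathway order from glucose uptake at the top; colour gives the call of edgeR's test. The red points are the 20 genes that were higher past the adjusted p, Pklr lies apart at 5.00, and the 2 blue points are Pgam2 and Bpgm; Fbp2, which was almost absent, is not drawn.

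The rises were graded over the Pde2A-/- hearts. In all 19 genes that rose, without Pklr, heart A had the lowest value of the Pde2A-/- hearts, and heart 15 had the highest in 18 of them. The 19 genes were called on these same hearts. Heart A also had the lowest Pde2A-/- sum for lists of macrophage (306 CPM), erythroid (767 CPM), skeletal muscle, glycogen and pentose phosphate genes. Another Pde2A-/- heart was lowest for the cardiomyocyte, endothelial, fibroblast, neutrophil and liver lists. Heart A lay within the range of the Pde2A+/+ hearts for 15 of the 19 genes and above every Pde2A+/+ heart for 4 (Slc2a8, Hk3, Pfkfb3 and Aldoc). Heart B lay above every Pde2A+/+ heart for 16, and hearts 14, D and 15 for all 19. The median ratio of these genes to the Pde2A+/+ mean was 0.996 in heart A, 1.26 in B, 1.71 in 14, 1.67 in D and 2.11 in 15. Over all 37 genes without Pklr and Bpgm it was 0.992, 1.13, 1.30, 1.24 and 1.47 in hearts A, B, 14, D and 15. For the 19 genes the Pde2A-/- hearts differed more from each other than the Pde2A+/+ hearts did, with a median coefficient of variation of 22.1% against 8.99%. Among the 17 genes that did not pass the test, the coefficient of variation was larger in Pde2A-/- hearts for 8 of them, and that of Ldhb was 3.46% in Pde2A-/- against 10.1% in Pde2A+/+ hearts. No gap separated the genotypes for most members: every Pde2A-/- heart was above every Pde2A+/+ heart for 5 of the 39 genes, where 5.38% of all genes tested had this order, and below for 1, against 3.11% of all genes.

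**Figure D2:**
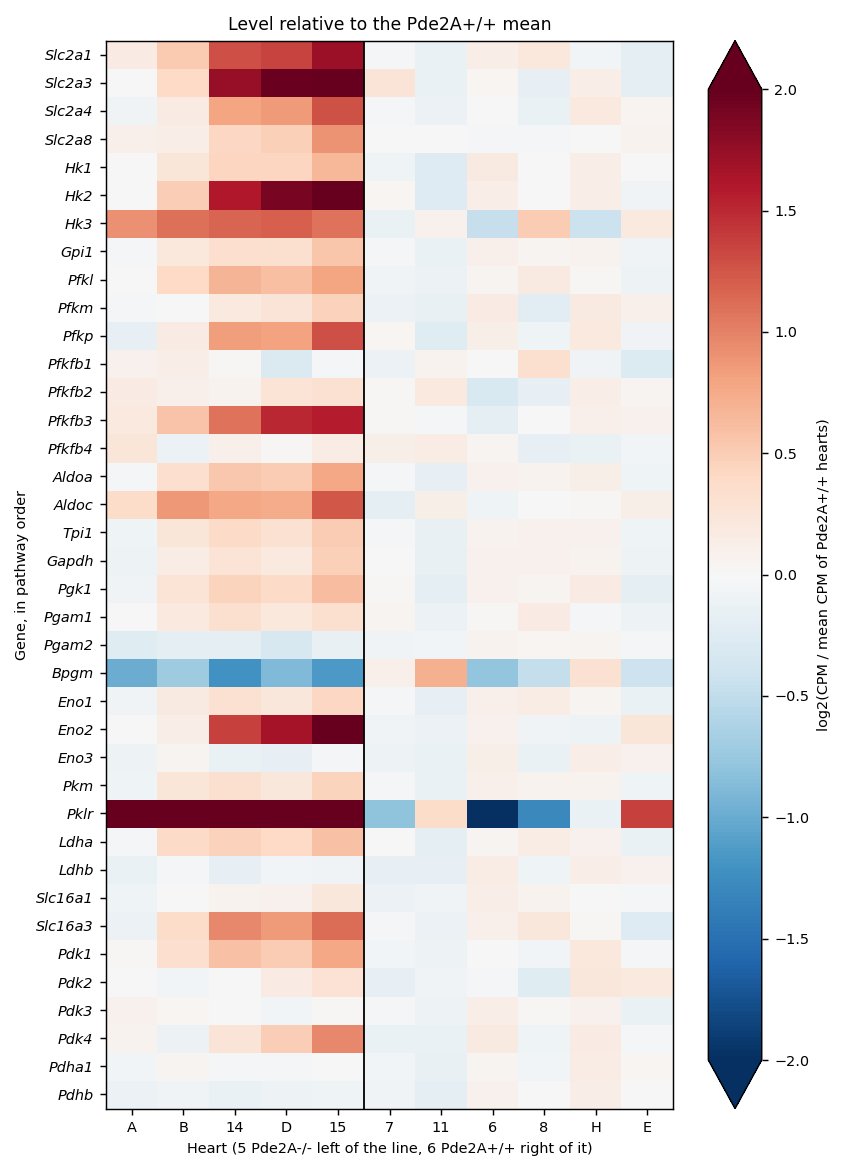
Level of each gene (rows, pathway order) in each heart (columns) as log2 of CPM over the mean of the 6 Pde2A+/+ hearts; colours stop at 2 in either direction. Among Pde2A-/- hearts the colour deepens from A to B and again to 14, D and 15 for the transporters, Hk2, Pfkfb3, Eno2 and Slc16a3, while Pklr is raised in all 5, Bpgm is lowered in all 5, and Pdha1, Pdhb, Ldhb and Eno3 stay pale; Fbp2 is not drawn.

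The transporter Slc2a1, the hexokinase Hk2 and the lactate dehydrogenase Ldha rose, each lowest in heart A and highest in heart 15 of the Pde2A-/- hearts. The lactate transporter Slc16a1 did not pass the test. Among Pde2A-/- hearts, Slc16a1 was also lowest in A (203 CPM) and highest in 15 (252 CPM). Other genes had this order of hearts too, and promoter sequences of these 4 genes are shown as examples. Each is the 250 bases before the annotated start in RefSeq (GRCm38.p6), written 5′ to 3′ in the direction of the gene, and for Ldha it is the first of 2 annotated starts. Capitals mark ACGTG and GCGTG on either strand; ACGTG is the core of the element that hypoxia-inducible factors bind and GCGTG is its usual variant, and a CACGTG counts as ACGTG on both strands.
Slc2a1 (chr4:119108495-119108744, plus strand): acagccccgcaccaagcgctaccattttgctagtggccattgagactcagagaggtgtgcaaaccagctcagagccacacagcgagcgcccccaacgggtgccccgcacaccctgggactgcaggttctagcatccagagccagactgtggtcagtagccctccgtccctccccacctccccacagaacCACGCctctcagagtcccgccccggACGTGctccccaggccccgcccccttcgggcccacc
Hk2 (chr6:82774455-82774704, minus strand): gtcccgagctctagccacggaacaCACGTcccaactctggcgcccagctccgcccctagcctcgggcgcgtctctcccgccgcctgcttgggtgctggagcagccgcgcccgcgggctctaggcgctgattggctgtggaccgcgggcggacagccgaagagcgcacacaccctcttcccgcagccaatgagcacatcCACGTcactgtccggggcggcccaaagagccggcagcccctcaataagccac
Ldha (chr7:46845554-46845803, plus strand): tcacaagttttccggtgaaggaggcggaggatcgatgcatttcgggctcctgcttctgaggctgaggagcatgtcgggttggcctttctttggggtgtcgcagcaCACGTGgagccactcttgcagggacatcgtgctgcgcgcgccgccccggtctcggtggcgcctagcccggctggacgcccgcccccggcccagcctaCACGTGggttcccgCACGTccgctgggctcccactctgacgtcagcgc
Slc16a1 (chr3:104638414-104638663, plus strand): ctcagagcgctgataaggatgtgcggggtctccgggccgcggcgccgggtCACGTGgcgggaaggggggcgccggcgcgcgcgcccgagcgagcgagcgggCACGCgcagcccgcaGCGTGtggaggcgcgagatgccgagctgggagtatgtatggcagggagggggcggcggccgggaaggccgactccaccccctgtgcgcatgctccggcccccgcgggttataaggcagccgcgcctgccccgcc

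The window of Slc2a1 held 1 match to ACGTG and 1 to GCGTG, that of Hk2 2 matches to ACGTG, and that of Ldha 5 to ACGTG, whereas the window of a second annotated start of Ldha held 1 match to GCGTG and none to ACGTG. Slc16a1, which did not pass the test, held 2 of each. RefSeq entries were found for 37 of the 39 genes, with 57 annotated starts, and none for Slc2a3 and Slc2a4. At least 1 of the 2 motifs was found in 41 of these 57 windows (71.9%), against 38.6% of all 32851 windows of this length. Some windows of the same gene overlap, as for Eno1, Aldoa and Pfkm, so that a site can be counted more than once. The windows compared were not matched for base composition, and the difference in share was not tested. The share was 69.2% for the 26 windows of genes that rose and 79.3% for the 29 windows of genes that did not pass the test. ACGTG was in 38.5% of the former and 37.9% of the latter. No window of Gpi1, Tpi1, Eno2, Pklr, Pgam2 or Bpgm held either motif.

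Transcripts of all 4 glucose transporters among the 39 genes were higher. Other genes of the family that were tested (Slc2a2, Slc2a5, Slc2a6, Slc2a9, Slc2a10, Slc2a12 and Slc2a13) did not pass the test. Slc2a1 (ENSMUSG00000028645, chromosome 4, 119108711 to 119137983), the general glucose transporter GLUT1 and the main one of the fetal heart, was at 292, 372, 632, 663 and 849.6 CPM in Pde2A-/- hearts A, B, 14, D and 15, against 230.0 to 300.3 CPM, median 253, in Pde2A+/+ hearts. Heart A lay inside the Pde2A+/+ range and the other 4 above it (log2 fold change 1.11, SE 0.22, edgeR adjusted p = 0.00581). Slc2a3 (ENSMUSG00000003153, chromosome 6, 122727809 to 122801640), the high-affinity transporter GLUT3, had the steepest gradient of the 4, with 39.9, 52.6, 134, 158 and 257 CPM in the same order of hearts against 35.3 to 47.7 CPM, median 38.8. Heart 15 was at 6.41 times the Pde2A+/+ mean and heart A at 0.996 times (log2 fold change 1.68, SE 0.37, edgeR adjusted p = 0.0118).

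Slc2a4 (ENSMUSG00000018566, chromosome 11, 69942539 to 69948188), the insulin-regulated transporter of muscle, was at 39.5, 46.7, 71.7, 74.6 and 99.8 CPM against 37.8 to 47.3 CPM, median 41.1. Hearts 14, D and 15 were above the Pde2A+/+ range (log2 fold change 0.68, SE 0.19, edgeR adjusted p = 0.0302), and the call was lost without Pde2A-/- heart 14, D or 15 or Pde2A+/+ heart 11, 6 or 8. The smallest rise of the 4 was that of Slc2a8 (ENSMUSG00000026791, chromosome 2, 32972990 to 32982083), an intracellular transporter, at 15.2, 15.6, 18.8, 19.8 and 26.4 CPM against 14 to 14.9 CPM, median 14.1 (log2 fold change 0.43, SE 0.12, edgeR adjusted p = 0.0299). Its groups did not overlap, but the call was lost without Pde2A-/- heart 14 or D or Pde2A+/+ heart 6, 8 or H. Per kilobase of exons Slc2a1 made up 77.1% ± 2.36 (SD, n = 6) of the 4 transporters' level in Pde2A+/+ hearts and 79.3% ± 1.37 (SD, n = 5) in Pde2A-/- hearts, with overlapping ranges.

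Hexokinase phosphorylates glucose and so traps it in the cell. Hk2 (ENSMUSG00000000628, chromosome 6, 82725025 to 82774454) is an isoform of muscle and of fast-growing cells. It was at 131, 184, 395, 484 and 606 CPM against 108 to 143 CPM, median 131. Heart A was again within the Pde2A+/+ range, and heart 15 was at 4.65 times the Pde2A+/+ mean (log2 fold change 1.47, SE 0.31, edgeR adjusted p = 0.00899). Hk1, the isoform of most tissues and the leading one here per length, was at 522, 612, 697, 701 and 825 CPM against 435 to 589.5 CPM, median 514 (log2 fold change 0.37, SE 0.11, edgeR adjusted p = 0.0336). The call of Hk1 was lost without Pde2A-/- heart 14, D or 15 or Pde2A+/+ heart 7, 11, 8 or E. The balance of the isoforms shifted with the hearts. Hk2 held 25.4 to 27.9% of the hexokinase level per kilobase in Pde2A+/+ hearts, 26.0% in heart A and 50.9% in heart 15. By the longest transcript in place of all exons, these shares were 15.7 to 17.4%, 16.1% and 36.1%. The ratio of Hk2 to Hk1 in CPM, not set per length, was 0.250, 0.300, 0.566, 0.691 and 0.734 in hearts A, B, 14, D and 15 and 0.241 to 0.274 in Pde2A+/+ hearts.

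Hk3 (ENSMUSG00000025877, chromosome 13, 55005985 to 55021385), the hexokinase of white blood cells, was low in all hearts and varied little among the Pde2A-/- hearts. It was at 3.60, 4.13, 4.31, 4.39 and 4.05 CPM against 1.40 to 2.72 CPM, median 1.89, with no overlap and with heart A among the raised hearts (log2 fold change 1.09, SE 0.17, edgeR adjusted p = 0.00118). Macrophage and neutrophil markers moved with it: 12 of 14 macrophage genes rose and none fell past the adjusted p. Over all genes tested, 8.93% rose and 5.67% fell. The summed level of the macrophage list was 306 to 382 CPM in Pde2A-/- hearts and 162 to 236 CPM in Pde2A+/+ hearts. Of the neutrophil genes 8 of 11 tested rose and none fell, with sums of 24.7 to 67.8 and 1.15 to 10.6 CPM. None of the defining markers of these lists was at 0 over all hearts. Their part in the level of Hk3 was not tested.

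Gpi1, which turns glucose 6-phosphate into fructose 6-phosphate, was at 805, 945, 1030.4, 1013 and 1202 CPM against 742 to 873 CPM, median 821 (log2 fold change 0.29, SE 0.08, edgeR adjusted p = 0.0362). Its call was lost without any 1 of Pde2A-/- hearts 14, D and 15 or of Pde2A+/+ hearts 7, 11, 6, 8 and E.

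Phosphofructokinase 1 catalyses the committed step of the pathway. Pfkl (ENSMUSG00000020277, chromosome 10, 77986947 to 78010083), the liver-type subunit, which many tissues also use, was at 428, 561, 679, 645 and 732 CPM against 393 to 481 CPM, median 419, above the Pde2A+/+ range in 4 of 5 hearts (log2 fold change 0.52, SE 0.11, edgeR adjusted p = 0.0103). Pfkp (ENSMUSG00000021196, chromosome 13, 6579768 to 6648777), the platelet-type subunit, was at 281, 352, 559, 549 and 767 CPM against 265 to 360.2 CPM, median 311, with hearts 14, D and 15 above the range (log2 fold change 0.67, SE 0.20, edgeR adjusted p = 0.0401). This call of Pfkp was lost in 9 of the 11 fits without 1 heart, all but those without Pde2A-/- heart A or B. Pfkm, the muscle-type subunit and the leading one per kilobase of exons (Pfkl leads by the longest transcript), was at 265, 271, 312, 324 and 375 CPM against 232 to 307 CPM, median 272, and did not pass the test (log2 fold change 0.19, SE 0.10, edgeR adjusted p = 0.232; 95% interval of the log2 fold change -0.03 to 0.40). It shares 10.2% of its exon bases with Gm26513 on the same strand, where reads cannot be assigned to either. The share of Pfkm in the level of the 3 subunits per kilobase was 48.2% ± 3.25 (SD, n = 6) in Pde2A+/+ hearts and 42.3% ± 3.49 (SD, n = 5) in Pde2A-/- hearts. Ranges of this share overlapped between the genotypes.

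The bifunctional enzymes of the Pfkfb family set the amount of fructose 2,6-bisphosphate, which activates phosphofructokinase 1, and only Pfkfb3, whose kinase activity dominates, passed the test among the 4. Pfkfb3 (ENSMUSG00000026773, chromosome 2, 11471433 to 11554077) was at 42.1, 54.2, 77.8, 104 and 109 CPM against 32.3 to 39.1 CPM, median 37.0, with all Pde2A-/- hearts above all Pde2A+/+ hearts (log2 fold change 1.08, SE 0.20, edgeR adjusted p = 0.00443). It was also the leading family member per length, with 63.8% ± 2.09 (SD, n = 6) of the level in Pde2A+/+ hearts and 76.0% ± 7.99 (SD, n = 5) in Pde2A-/- hearts. The ranges of this share overlapped. Pfkfb1, Pfkfb2 and Pfkfb4 had log2 fold changes of -0.01, 0.19 and 0.09, with 95% intervals of -0.27 to 0.26, -0.03 to 0.40 and -0.13 to 0.31. Pfkfb2 shares 17.4% of its exon bases with Gm29427 on the same strand, where reads cannot be assigned to either. Fbp2, the muscle fructose-1,6-bisphosphatase of the reverse reaction, was almost absent, with 0.0783, 0.212, 0.0498, 0.0278 and 0.0551 CPM in Pde2A-/- hearts and 0 to 0.0994 CPM in Pde2A+/+ hearts, and no difference was detectable at this depth.

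**Figure D3:**
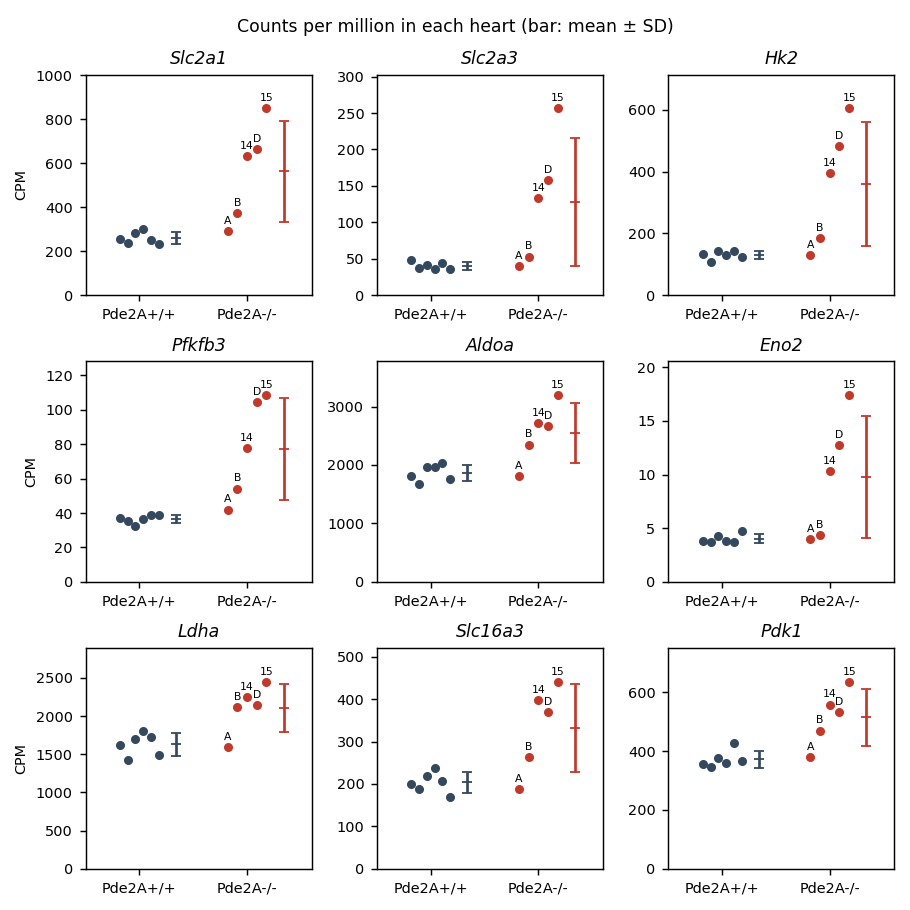
CPM of 9 genes in each heart on linear axes from 0 (1 point per heart, Pde2A-/- hearts labelled by replicate; bars give mean ± SD beside the points). Heart A sits at or near the Pde2A+/+ points and heart 15 is the highest in all 9 panels, as for Hk2 at 131 and 606 CPM.

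Aldolase splits fructose 1,6-bisphosphate into the triose phosphates. Aldoa (ENSMUSG00000030695, chromosome 7, 126795234 to 126800751), the muscle aldolase and the gene with the highest level per length of all the genes described, at 642 CPM per kilobase in Pde2A+/+ hearts, was at 1813, 2348, 2719, 2668 and 3197 CPM against 1667 to 2026 CPM, median 1887 (log2 fold change 0.45, SE 0.11, edgeR adjusted p = 0.0204). The call of Aldoa was lost without Pde2A-/- heart 14, D or 15. Aldoc (ENSMUSG00000017390, chromosome 11, 78322968 to 78327781), the brain-type aldolase, was at 33.1, 46.6, 44.0, 42.9 and 61.0 CPM against 22.4 to 27.9 CPM, median 25.9, without overlap (log2 fold change 0.83, SE 0.12, edgeR adjusted p = 0.000769). Its call held in every fit that left out a heart or hearts. Aldoc had a larger log2 fold change than Aldoa, a difference that was not tested. It held 1.22% ± 0.166 (SD, n = 6) and 1.57% ± 0.147 (SD, n = 5) of the aldolase level per kilobase, with overlapping ranges.

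Tpi1, which interconverts the triose phosphates, was at 1017, 1267, 1401, 1332 and 1526 CPM against 965 to 1144 CPM, median 1093 (log2 fold change 0.28, SE 0.09, edgeR adjusted p = 0.0461), a call that was lost without any 1 heart other than Pde2A-/- heart A. Gapdh, which oxidises glyceraldehyde 3-phosphate and is often used as a reference gene, was at 983, 1169, 1275, 1199.7 and 1470.1 CPM against 950.3 to 1123 CPM, median 1078. It was above the Pde2A+/+ range in 4 of 5 hearts without passing the test (log2 fold change 0.21, SE 0.09, edgeR adjusted p = 0.116), and passed it without heart A. Gapdh has 75 annotated pseudogenes of at least 95% identity over 200 bases, which held 6.91 to 7.51% of the reads assigned to the gene and its copies, so that its level is uncertain. Pgk1, the X-linked phosphoglycerate kinase that makes the first ATP of the pathway, was at 437, 553, 623, 595 and 701 CPM against 398 to 512 CPM, median 468 (log2 fold change 0.35, SE 0.10, edgeR adjusted p = 0.0401). The call of Pgk1 held with log2 Xist as a covariate, which takes account of the sex of the embryos, and was lost without Pde2A-/- heart 14, D or 15 or Pde2A+/+ heart 7, 11, 6, 8 or E.

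Pgam2, the muscle phosphoglycerate mutase, went the other way. It was at 231, 243, 239, 219 and 246 CPM against 261 to 288 CPM, median 273, and every Pde2A-/- heart was below every Pde2A+/+ heart, by a small margin (log2 fold change -0.22, SE 0.05, edgeR adjusted p = 0.00849). Pgam1, the general isoform, had a log2 fold change of 0.21 and an edgeR adjusted p of 0.0515. It passed with DESeq2, filterByExpr, naming style as covariate, and without Pde2A-/- heart A or Pde2A+/+ heart 8. The share of Pgam2 in the mutase level per kilobase was 88.6 to 90.0% in Pde2A+/+ hearts and 85.4 to 87.9% in Pde2A-/- hearts. Beside Pgam2, 6 of 16 cardiomyocyte genes fell and none rose past the adjusted p, where 5.67% of all genes fell and 8.93% rose. The median log2 fold change of the cardiomyocyte list was -0.26. Its summed level was 40592 to 46301 CPM in Pde2A-/- hearts and 40626 to 55052 CPM in Pde2A+/+ hearts. No defining cardiomyocyte marker was at 0. Their part in the level of Pgam2 was not tested.

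Enolase is the next step. Eno2 (ENSMUSG00000004267, chromosome 6, 124760053 to 124769673), the neuronal isoform, was at 3.99, 4.39, 10.3, 12.7 and 17.4 CPM against 3.72 to 4.75 CPM, median 3.82, and hearts A and B lay within the Pde2A+/+ range while 14, D and 15 lay above it (log2 fold change 1.28, SE 0.32, edgeR adjusted p = 0.0199). The call was lost without Pde2A-/- heart D or 15. Eno3, the muscle isoform and the leading one per kilobase of exons (Eno1 leads by the longest transcript), was at 327, 365, 323, 315 and 348 CPM against 322 to 386 CPM, median 353, and did not pass the test (log2 fold change -0.07, SE 0.06, edgeR adjusted p = 0.482; 95% interval -0.21 to 0.06). Eno1, the general isoform, had a log2 fold change of 0.22 (95% interval 0.04 to 0.40, edgeR adjusted p = 0.0904). It passed without heart A, with DESeq2 and with naming style as covariate. Even in heart 15, Eno2 held only 1.03% of the enolase level per kilobase.

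Pkm, the pyruvate kinase of muscle and most tissues, was at 1589, 1985, 2104, 1979 and 2301 CPM against 1532 to 1803 CPM, median 1716. It was above the range in 4 of 5 hearts and did not pass the test (log2 fold change 0.24, SE 0.08, edgeR adjusted p = 0.0632). It passed without heart A, with DESeq2 and with naming style as covariate. Its counts do not separate the M1 and M2 splice forms, and 15.3% of its exon bases overlap Gm49759 on the same strand. Pkm and Gpi1 each have 1 near-identical pseudogene, with 1.44 to 1.62% and 1.43 to 1.61% of the joint reads.

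Lactate dehydrogenase reduces pyruvate to lactate, with Ldha coding for the muscle subunit and Ldhb for the heart subunit. Ldha was at 1592, 2115, 2249, 2139 and 2447 CPM against 1424 to 1802 CPM, median 1662 (log2 fold change 0.37, SE 0.10, edgeR adjusted p = 0.0228). Its call was lost without Pde2A-/- heart 14, D or 15. Ldhb did not pass the test (log2 fold change -0.09, SE 0.07, edgeR adjusted p = 0.388), and its 95% interval was -0.23 to 0.05. The ratio of Ldha to Ldhb counts was 2.97, 3.72, 4.28, 3.78 and 4.39 in hearts A, B, 14, D and 15, against 2.39 to 3.28, median 2.70, in Pde2A+/+ hearts. Per kilobase, Ldha made up 56.8% ± 2.83 (SD, n = 6) and 64.2% ± 3.60 (SD, n = 5) of the total, with overlapping ranges.

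Of the lactate transporters, Slc16a3 (ENSMUSG00000025161, chromosome 11, 120948480 to 120960868), the exporter MCT4 of glycolytic cells, was at 187, 262, 397, 369 and 441 CPM against 170.2 to 239 CPM, median 203 (log2 fold change 0.70, SE 0.18, edgeR adjusted p = 0.0209). Heart A was in the Pde2A+/+ range and the other 4 above it, and the call was lost without Pde2A-/- heart 14, D or 15. Slc16a1, the transporter MCT1, was at 203, 214, 228, 230.2 and 252 CPM against 199 to 237 CPM, median 215, and 4 of 5 Pde2A-/- hearts lay within the Pde2A+/+ range (log2 fold change 0.06, SE 0.06, edgeR adjusted p = 0.555; 95% interval -0.07 to 0.19). Slc16a3 held 43.8% ± 2.29 (SD, n = 6) of the level of the pair per kilobase in Pde2A+/+ hearts and 53.9% ± 6.90 (SD, n = 5) in Pde2A-/- hearts. The ranges overlapped, at 40.1 to 46.7% and 43.4 to 59.2%.

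At the entry to mitochondrial oxidation, the pyruvate dehydrogenase kinases switch the complex off. Pdk1 (ENSMUSG00000006494, chromosome 2, 71873224 to 71903858), the isoform known to be induced by low oxygen, was at 379, 469.6, 558, 531 and 635 CPM against 346 to 428 CPM, median 362, above the range in 4 of 5 hearts (log2 fold change 0.47, SE 0.11, edgeR adjusted p = 0.0130). Pdk2, Pdk3 and Pdk4 did not pass the test, with log2 fold changes of 0.08, 0.02 and 0.38 and 95% intervals of -0.12 to 0.28, -0.09 to 0.14 and 0.05 to 0.71. Pdha1, the X-linked catalytic subunit, was at 524, 565, 529.8, 533 and 547 CPM against 489 to 604 CPM, median 545, and all Pde2A-/- hearts lay within the Pde2A+/+ range (log2 fold change -0.01, SE 0.05, edgeR adjusted p = 0.895). Its partner subunit Pdhb had a log2 fold change of -0.10 and a 95% interval of -0.22 to 0.01.

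Red blood cells use the pyruvate kinase made from Pklr and divert part of the pathway through the mutase Bpgm, which makes the 2,3-bisphosphoglycerate that lowers the oxygen affinity of haemoglobin. These 2 genes moved in opposite directions. Pklr (ENSMUSG00000041237, chromosome 3, 89136142 to 89146784) was at 21, 43.4, 44.7, 35.4 and 40.9 CPM in hearts A, B, 14, D and 15 against 0.274 to 2.95 CPM, median 0.848, and heart A, near the Pde2A+/+ hearts in most of the pathway, was above every Pde2A+/+ heart (log2 fold change 5.00, SE 0.41, edgeR adjusted p = 8.88e-06). Bpgm (ENSMUSG00000038871, chromosome 6, 34476207 to 34505613) was at 44.1, 53.6, 38.1, 47.5 and 39.6 CPM against 51.1 to 144 CPM, median 80.3, and 4 of 5 Pde2A-/- hearts lay below every Pde2A+/+ heart (log2 fold change -0.98, SE 0.23, edgeR adjusted p = 0.0148). Bpgm also varied among Pde2A+/+ hearts, with a coefficient of variation of 39.7%.

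Erythroid markers rose with Pklr, whereas Bpgm fell. Of 14 erythroid genes tested 13 rose and none fell past the adjusted p, where 8.93% of all genes rose and 5.67% fell. The median log2 fold change of the erythroid list was 2.60. Its summed level was 767 to 1449.7 CPM in Pde2A-/- hearts against 240.0 to 681 CPM. Of the defining markers, Klf1 and Slc4a1 rose by 4.10 and 2.81 on the log2 scale, whereas Alas2, the haem synthesis enzyme of late erythroid cells, was at 89.1 to 159 CPM in Pde2A-/- and 77.0 to 359.6 CPM in Pde2A+/+ hearts and did not pass the test (edgeR adjusted p = 0.221). No defining erythroid marker was at 0. Per 100 CPM of Slc4a1, the band 3 anion exchanger of the red cell membrane, Pklr was at 8.79 to 11.1 CPM in Pde2A-/- hearts and 1.20 to 5.68 CPM in Pde2A+/+ hearts. The highest of the latter was heart E, which also had the most Alb, and Pklr is expressed in liver too. Bpgm was at 9.45 to 18.9 CPM per 100 CPM of Slc4a1 in Pde2A-/- hearts and 127 to 224 CPM in Pde2A+/+ hearts. Slc4a1 itself was at 233 to 494 CPM in Pde2A-/- and 22.8 to 91.2 CPM in Pde2A+/+ hearts. Both ratios thus carry the rise of Slc4a1 and depend on the marker chosen, since Alas2 did not rise past the adjusted p. The part of erythroid and liver cells in the levels of Pklr and Bpgm was not tested. With the erythroid and globin genes left out before normalization, the same 20 genes were higher.

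**Figure D4:**
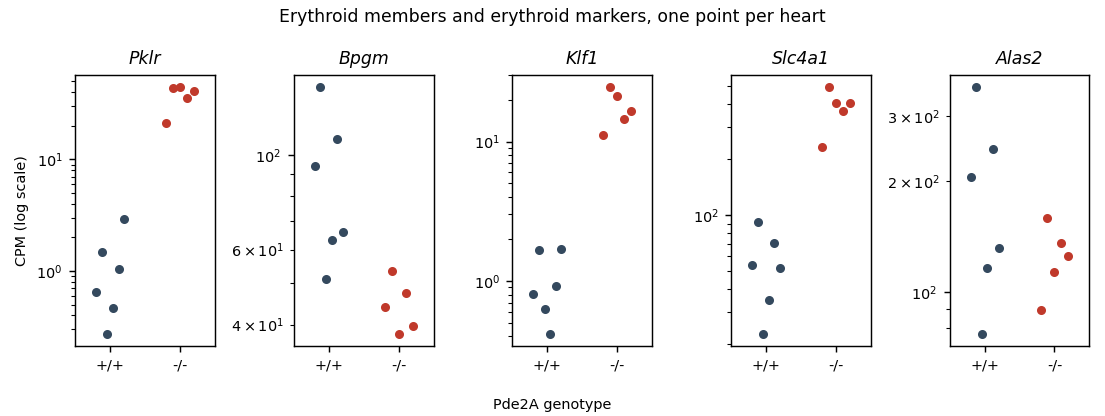
CPM of Pklr and Bpgm and of the erythroid markers Klf1, Slc4a1 and Alas2 in each heart (1 point per heart; log axes that differ between panels). Pklr, Klf1 and Slc4a1 are higher in all 5 Pde2A-/- hearts than in any Pde2A+/+ heart, Bpgm is lower in 4 of 5, and the genotypes overlap for Alas2.

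The summed level of the 37 genes other than Pklr and Bpgm followed the same order of hearts, at 14006, 17053, 19322, 18937 and 22230.2 CPM in hearts A, B, 14, D and 15 against 13063 to 15576, median 14651, in Pde2A+/+ hearts. A list of 15 other genes of the hypoxia response, none of them in the pathway, had 12 genes that rose (80%) and none that fell. Over all genes tested, 8.93% rose and 5.67% fell. The median log2 fold change of the list was 1.14, against -0.02 over all genes. The sum of the list was 989.5, 1252, 2034, 2342 and 2924 CPM in the same hearts against 891 to 1009 CPM. Heart A was thus within the Pde2A+/+ range on both sums and heart 15 highest on both, while hearts 14 and D changed places. Ndrg1 and Egln3, which had the largest changes in this list, rose by 2.31 and 1.98 on the log2 scale. The points share their library and its scaling, and the hypoxia list was chosen with earlier results known. The part of hypoxia in either sum was not tested.

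**Figure D5:**
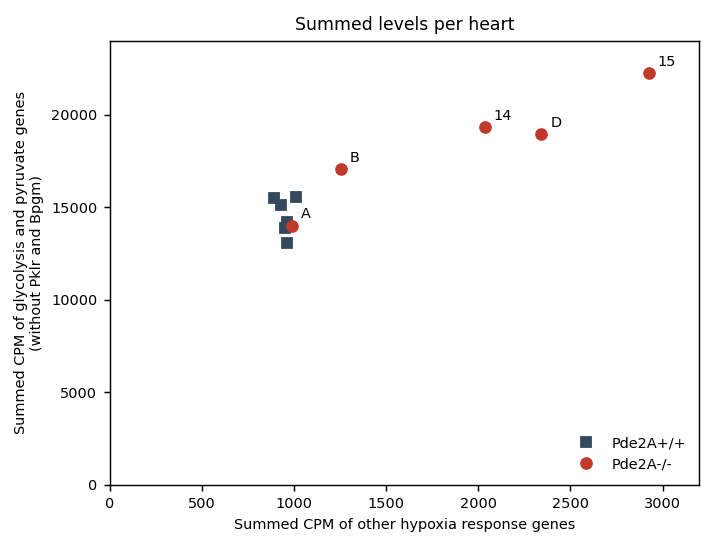
Summed CPM of the 37 glycolysis and pyruvate genes without Pklr and Bpgm (y axis) against summed CPM of 15 other hypoxia response genes (x axis), 1 point per heart, both axes from 0. The Pde2A+/+ hearts (squares) and Pde2A-/- heart A lie together at 891 to 1009 CPM on the x axis, and hearts B, 14, D and 15 lie above them on both axes.

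The labels name some hearts by letters and some by numbers, with no word on what this means. The median log2 ratio of the Pde2A-/- mean to the Pde2A+/+ mean over all 37 genes without Pklr and Bpgm was 0.52 within the numbered hearts (14 and 15 against 7, 11, 6 and 8) and 0.17 within the lettered ones (A, B and D against H and E). Over all genes tested, where both means were above 0, it was -0.03 and 0.0022. For the 20 genes that rose, which were chosen on these same hearts, it was 1.03 and 0.33.

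Of 32 other glycolysis and pyruvate genes tested, 5 rose, 2 fell and 25 did not pass the test. These were 15.6% higher and 6.25% lower, against 8.93% and 5.67% of all genes tested. Pdp2, a phosphatase that switches pyruvate dehydrogenase on, and Pcx, pyruvate carboxylase, rose by 0.43 and 0.41 on the log2 scale, the former with a call lost in 8 of the 11 fits without 1 heart and the latter with a call kept in all 11. Fbp1, the liver fructose-1,6-bisphosphatase, passed the test as lower but had at most 1 count in a Pde2A-/- heart, and among Pde2A+/+ hearts it was at 3.68 CPM in heart 7 and 0.0480 to 0.136 CPM in the others. Its call was lost without any 1 of the 5 Pde2A-/- hearts or Pde2A+/+ heart 6.

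Among the 20 genes of glycogen metabolism 7 rose and 1 fell. These were 35% and 5%, against 8.93% and 5.67% of all genes tested. Epm2a, the glycogen phosphatase laforin, was at 16.3, 20.6, 37.0, 34.5 and 51.7 CPM against 13.8 to 18.6 CPM (log2 fold change 0.96, SE 0.23, edgeR adjusted p = 0.0184), with heart A lowest and heart 15 highest. Ppp1r3c, a subunit that brings a phosphatase to glycogen, rose by 0.82, Pygl, the liver-type glycogen phosphorylase, by 0.62 and Gys1, the muscle glycogen synthase, by 0.52 on the log2 scale. The calls of Epm2a (without Pde2A-/- heart 14), Ppp1r3c (without Pde2A-/- heart D or 15) and Gys1 (in 8 of 11 fits) depended on single hearts, and that of Pygl did not. Of the 8 pentose phosphate genes 4 rose (50%) and 1 fell (12.5%), all by small amounts. Tkt, transketolase, rose by 0.44, Rpia by 0.38, G6pdx, the X-linked enzyme that opens the pathway, by 0.34 and H6pd by 0.24 on the log2 scale, and the calls of Tkt and G6pdx held in all 11 fits without 1 heart. The call of H6pd was lost in 7 of these fits, that of Rpia in 2, and that of Pgls, the gene that fell, in 8.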

How the data were processed

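Stranded poly(A) RNA-seq libraries (single-end) of 11 E14.5 hearts were used. The authors aligned reads to GRCm38 (mm10) with STAR, whose version is not given in the sources used here, and deposited unnormalized read counts per Ensembl gene. Counts of the sense strand were taken, and gene names, positions and lengths came from GENCODE M21, the same build. The genes and lists were chosen with earlier results of these data known.

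The 24177 genes whose counts summed to 10 or more were scaled by TMM and fitted in edgeR 4.0.16 (R 4.3.3). The genotypes were compared by its quasi-likelihood test, and p-values were adjusted over all these genes after Benjamini and Hochberg. Standard errors are the log2 fold change over the root of its F statistic. CPM are counts relative to the TMM-scaled library size, and levels of different genes were compared per kilobase of the union of exons. The fit was also run on simulated counts that had the same dispersion in every gene and in both genotypes. That simulation covered neither a larger spread among Pde2A-/- hearts nor changes under 2-fold. Hearts came from separate embryos whose litters are not given, and p-values measure the spread between them. Of the 39 genes, 36 had at least 100 counts in every heart. Reads that map to several places are not in the counts. Pseudogene copies were found with BLAST+ 2.17.0.

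Values in every heart are given for the 16 genes with the largest changes past the adjusted p, the leading isoform of each step per length, and Pklr and Bpgm, and up to 4 genes of each other list; some genes that this rule names are not reported here. Alternatives were DESeq2 1.42.0, its size factors, filterByExpr, no filter, both strands, covariates for naming style and Xist, erythroid and globin genes left out, an adjusted p under 0.01, each heart left out, length by the longest transcript and, chosen after seeing the data, hearts with over 10 CPM of Alb or over 50 CPM of Myh3 left out.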

Additional observations from a re-analysis of the deposited data

Results flagged for a closer look

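Among the 78 groups of hearts examined, 1 per gene and genotype, 3 had a heart far from the others by Dixon's criterion, and chance gives about 1 in 20. Slc2a8 was at 14.9 CPM in Pde2A+/+ heart E and 14 to 14.1 CPM in the other Pde2A+/+ hearts. Fbp2 was at 0.212 CPM in Pde2A-/- heart B, which was among the hearts with skeletal muscle RNA, and 0.0278 to 0.0783 CPM in the other Pde2A-/- hearts; no heart had over 9 counts of it. Pdk1 was at 428 CPM in Pde2A+/+ heart H and 346 to 376 CPM in the other Pde2A+/+ hearts.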

How the results depend on the processing

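No paired analysis was possible because the genotypes share no replicate name. The number of genes higher (20 of 39) was 20 to 23 with DESeq2, DESeq2 size factors, filterByExpr, no filter, both strands, either covariate, or erythroid genes left out, and each of these fits kept the same 20 genes. Over these fits, 6.15 to 13.8% of all genes tested were higher. DESeq2 and naming style as covariate each added Eno1, Pgam1 and Pkm, and filterByExpr added Pgam1. The number higher was 9 to 24 when 1 heart was left out (5.40 to 12.1% of all genes) and 2 without the hearts with liver RNA (2.13%). It was 12 without the hearts with skeletal muscle RNA (5.76%) and 6 at an adjusted p under 0.01 (3.68%). The number lower (2) was 2 in every fit that left out 1 heart, where 1.73 to 9.07% of all genes were lower. It was 0 without the hearts with liver RNA (0.221% of all genes) and 1 at an adjusted p under 0.01 (0.587%). The number at least 2-fold higher (7) was 4 to 7 when 1 heart was left out and 1 without the hearts with liver RNA. The fits without tissue-bearing hearts had fewer hearts, and the cause of the lost calls was not tested. The median log2 fold change, 0.35, was 0.23 to 0.44 when 1 heart was left out. Changes of sign were seen for Pfkfb1, Pdha1 and Pdk3, none of which passed the test in any fit. The log2 fold change of Pfkfb1, -0.00645, was -0.0554 to 0.0709 when 1 heart was left out, 0.00180 with both strands, 0.0324 with naming style as covariate, 0.0268 with the hearts with skeletal muscle RNA left out. The log2 fold change of Pdha1, -0.0139, was -0.0432 to 0.0204 when 1 heart was left out, 0.00674 with both strands, 0.00742 with the hearts with liver RNA left out. The log2 fold change of Pdk3, 0.0233, was -0.00261 to 0.0537 when 1 heart was left out, -0.00318 with the hearts with liver RNA left out. By the longest transcript in place of all exons, Eno1 (57.6%) replaced Eno3 (42.2%) and Pfkl (46.7%) replaced Pfkm (38.6%) as the leading isoform in Pde2A+/+ hearts. Counts on both strands changed no call.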
